A study of Mus musculus with 5 samples.

Results

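The 10 genes described here encode proteins of the actomyosin stress fibre: the tropomyosins Tpm1, Tpm2, Tpm3 and Tpm4, the α-actinins Actn1 and Actn4, the thin filament regulators Cald1 (caldesmon) and Cnn2 (calponin 2), and the nonmuscle myosin II heavy chains Myh9 and Myh10. They were taken by symbol from a list, after the 55335 Ensembl gene IDs of the count table had been matched to GENCODE M21 symbols. All 10 passed the filter on low counts, among 16380 genes tested. The cells were primary fibroblasts, matrix-producing cells isolated from mouse lung and kept in culture. In 3 libraries the cells had been given the cytokine TGF-β1 (5 ng/mL, 24 h), and in 2 libraries vehicle alone. Strain, age and sex of the mice, and whether a library stands for an animal or a dish, are stated by no source used here, so p-values measure only the spread between these 5 libraries, which may be technical.

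Stress fibres are bundles of actin filaments that pull on the matrix through focal adhesions. Tropomyosins are coiled-coil proteins that lie along the filament and set which myosins and severing proteins reach it. α-Actinins crosslink filaments into bundles, bipolar nonmuscle myosin II filaments slide them past each other, and caldesmon and calponin bind filaments and myosin and damp that sliding. TGF-β1 is the classic inducer of contractile myofibroblasts, in which such bundles are prominent.

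Library totals ran from 34283288 to 43163967 counts. Log2 CPM (counts scaled to a common library total) correlated at 0.987 to 0.989 within groups and at 0.958 to 0.960 between groups. Fibroblast markers were abundant, with summed levels of 26140.0 to 27148 CPM in the controls and 33270.0 to 33535 CPM with TGF-β1. Most of that sum was Col1a1 and Col1a2, which both rose (0.69 and 0.13 in log2 fold change). Of the 9 fibroblast markers 4 were higher and 5 lower, with a median log2 fold change of −0.49. Markers of other cell types were present in unequal amounts. All 8 mesothelial markers were lower with TGF-β1, their sum going from 1386 to 1471 CPM in the controls to 168 to 187 CPM. Of 8 smooth muscle and pericyte markers 5 were lower and 1 higher (sums of 3113 to 3224 against 2558 to 2582 CPM), and of 5 leukocyte markers tested 3 were lower and 1 higher (432 to 436 against 364 to 381 CPM, with Cd3e at 0). Summed endothelial markers lay between 2.25 and 3.40 CPM and epithelial markers between 1.78 and 4.10 CPM over the 5 libraries, with Sftpc and Nkx2-1 at 0. Striated muscle markers summed to 16.3 to 18.1 CPM in the controls and 7.88 to 9.75 CPM with TGF-β1. Most of the control sum was Actn3 (15.4 and 13.6 CPM), which fell to 2.86, 3.86 and 3.54 CPM. Of 4 striated muscle markers tested 2 were lower and 1, Tnnt2, was higher (1.78 in log2 fold change). In bulk RNA, fewer cells of a type and less RNA per cell cannot be told apart, and the part of these shifts in the results below was not tested.

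The comparison asks how transcripts of these proteins differ after 24 h of TGF-β1. By edgeR's quasi-likelihood test at an adjusted p under 0.05, 6 of the 10 rose (Myh9, Tpm1, Actn1, Cald1, Tpm3, Tpm4), 2 fell (Myh10, Actn4) and 2 did not pass (Tpm2, Cnn2). Without any 1 library, 5 rose, since Tpm4 was then lost. Over all genes tested, 21.3% rose, 23.2% fell and 44.5% were called in either direction. All 10 genes are abundant, and of the 1973 tested genes at 100 CPM or more 51.4% rose and 22% fell (73.4% in either direction). The counts among the 10 lie near those shares. By mean level the scarcest of the 10, Tpm3, ranks 312th of all genes, so most of the 1973 are less abundant than any of the 10. The median log2 fold change (TGF-β1 over control) was 0.10 for the 10 genes, 0.11 for the abundant genes and 0.00 for all genes tested. Libraries of the groups did not overlap for 9 of the 10 genes, 6 higher and 3 lower, against 64.6% of all genes tested (31.6% higher and 33% lower). Among the genes at 100 CPM or more that share was 84.9% (58.5% higher and 26.5% lower), so 9 of 10 is near the share of those genes. Only 2 of the 10, Myh9 and Myh10, passed a test against a change of 1.5-fold, which 3.44% of all genes passed upward and 7.47% downward. Below, levels are CPM with TMM scaling (edgeR's adjustment of library size). Means carry the SD over libraries (control, n = 2; TGF-β1, n = 3).

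**Figure D1:**
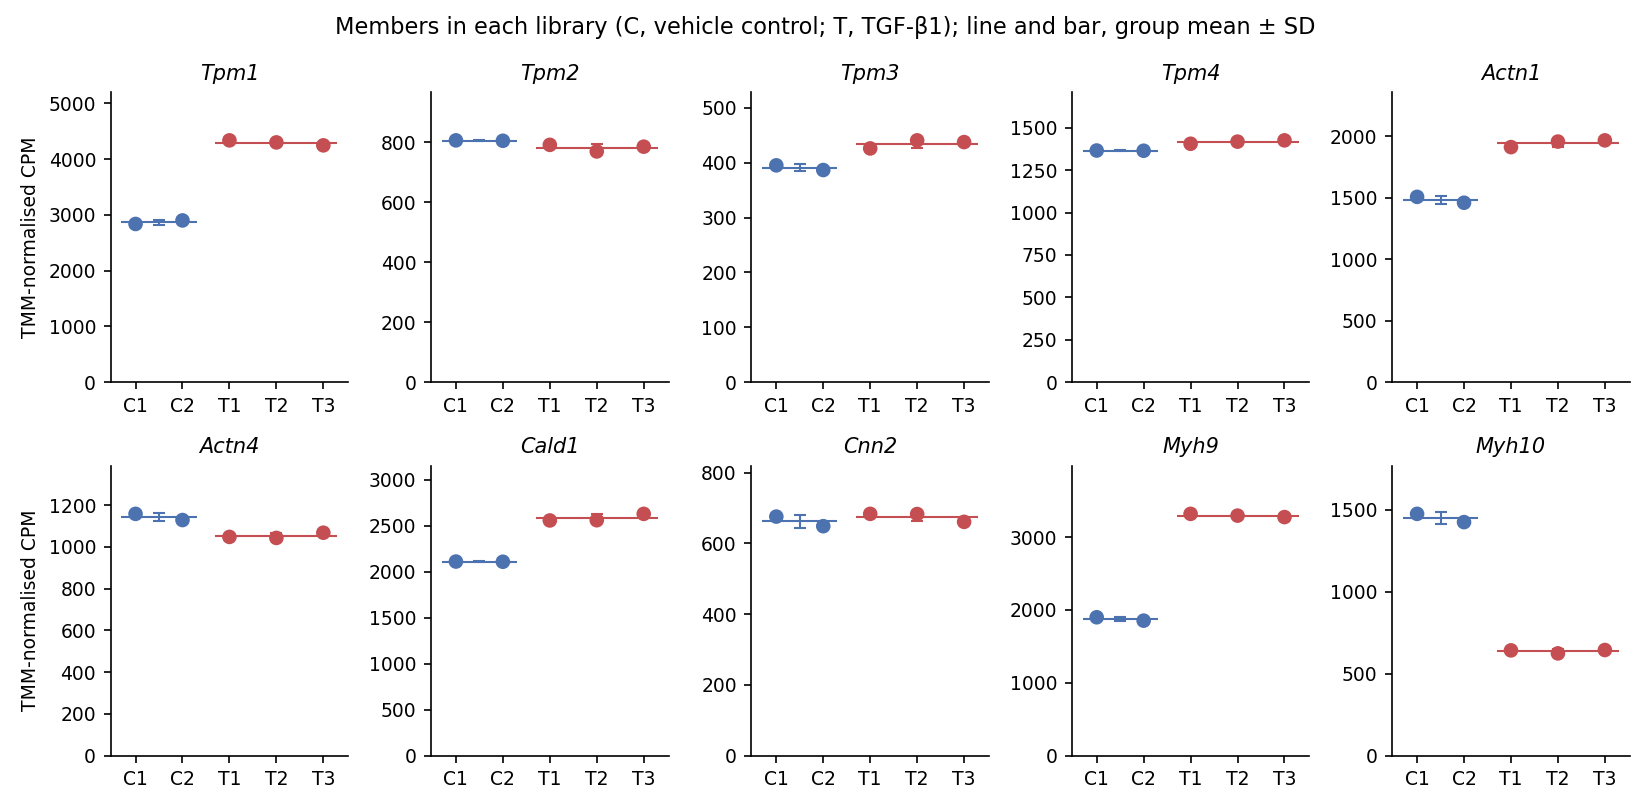
Level of each of the 10 genes in each library, in TMM-normalised CPM on axes that start at 0. Blue points are the 2 vehicle control libraries (C1, C2) and red points the 3 TGF-β1 libraries (T1 to T3), and lines with bars are group means ± SD. The groups are far apart for Myh9, Myh10 and Tpm1, and overlap for Cnn2.

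The 2 nonmuscle myosin II heavy chains moved in opposite directions, with Myh9 up 1.76-fold and Myh10 down 2.28-fold. Myh9 encodes the heavy chain of myosin IIA, the fast-turning form that builds tension in most nonmuscle cells (ENSMUSG00000022443 on chromosome 15, 77760587 to 77842175 of GRCm38, minus strand). It stood at 1899 and 1853 CPM in the controls and at 3318, 3294 and 3274 CPM with TGF-β1. Every TGF-β1 library lay above both controls, and the distance between the groups was many times the spread within them. The means were 1876 ± 32.9 and 3295 ± 22.1 CPM, a log2 fold change of 0.81 (SE 0.019, adjusted p = 2.61e-09 by edgeR).

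Myh10 encodes the heavy chain of myosin IIB, which stays bound to actin longer and holds tension (ENSMUSG00000020900 on chromosome 11, 68691559 to 68816632, plus strand). It stood at 1475 and 1424 CPM in the controls and at 642, 624 and 644 CPM with TGF-β1. All 3 treated libraries lay below both controls. The means were 1449 ± 35.7 and 637 ± 11.3 CPM, a log2 fold change of −1.19 (SE 0.025, adjusted p = 1.37e-09 by edgeR), the only one of the 10 genes to fall by more than 1.5-fold. Mesothelial markers fell in the same libraries (median log2 fold change −3.37 over 8 markers), and their part in the fall of Myh10 was not tested.

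Counts per exon length within each library put the pair side by side without any scaling between libraries. Per kilobase of merged exons, Myh9 was 1.04 and 1.05 times Myh10 in the controls and 4.18, 4.27 and 4.11 times Myh10 with TGF-β1. By this length the chains were near parity in the controls and about 4 to 1 with TGF-β1. The level of the ratio depends on the length used, and with the longest coding transcript it was 1.35 and 1.36 in the controls and 5.42, 5.53 and 5.33 with TGF-β1, the difference in log2 ratio being the same. The mean log2 ratio rose from 0.07 ± 0.010 to 2.07 ± 0.028, a difference of 2.00, or 85.3 times the pooled SD within groups. The exact two-sided permutation test gave p = 0.1, which is the smallest p that 2 against 3 libraries allow, and adjusting over the 6 ratios computed left it at 0.1. Myh9 made up 51.1 ± 0.18% of the summed per-kilobase level of both chains in the controls and 80.7 ± 0.30% with TGF-β1, while that sum went from 284 ± 5.96 to 316 ± 1.98 CPM per kilobase. Of the 2 remaining class II chains on the relatives list, Myh14 (myosin IIC) had at most 0.0951 CPM in any library. Myh11, which encodes the smooth muscle form, was lower with TGF-β1 (317 ± 0.977 CPM, against 494 ± 6.61 CPM in the controls) at a log2 fold change of −0.64. It is itself 1 of the 5 that were lower among the 8 smooth muscle and pericyte markers. Of those 8 markers 1, Cspg4, was higher (3.47 in log2 fold change). Myh9 and Myh10 share 0.365% and 0.451% of their 75-base transcript stretches with each other, so reads of one can hardly be counted for the other.

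Bases before the RefSeq start of these oppositely moving genes, and of the α-actinin pair that also diverged, are shown with the short motifs they hold. All 10 genes matched RefSeq's promoter table (GRCm38.p6), with 12 windows of 250 bases before to 50 after an annotated start. For each gene below, the longest stretch of the 250 bases free of GENCODE M21 exons is printed on the gene's strand, with matches to 4 motifs in capitals: CAGAC (the SMAD core), CATTCC (TEAD), TGANTCA (AP-1) and the CArG box of SRF, each searched on both strands. The stretches are chr15:77842176-77842425 for Myh9, chr11:68691843-68691914 for Myh10, chr12:80260558-80260613 for Actn1 and chr7:28962341-28962582 for Actn4. The Myh10 stretch lies before the RefSeq start but inside the gene as GENCODE M21 draws it, between exons of transcripts that start at different places.
Myh9: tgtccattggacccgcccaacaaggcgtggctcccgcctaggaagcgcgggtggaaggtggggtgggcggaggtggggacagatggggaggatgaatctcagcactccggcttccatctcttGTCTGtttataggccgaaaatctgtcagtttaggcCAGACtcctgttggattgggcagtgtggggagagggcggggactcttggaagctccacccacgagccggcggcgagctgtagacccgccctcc
Myh10: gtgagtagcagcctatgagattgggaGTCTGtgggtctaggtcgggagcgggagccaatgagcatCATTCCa
Actn1: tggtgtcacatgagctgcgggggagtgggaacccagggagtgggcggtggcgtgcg
Actn4: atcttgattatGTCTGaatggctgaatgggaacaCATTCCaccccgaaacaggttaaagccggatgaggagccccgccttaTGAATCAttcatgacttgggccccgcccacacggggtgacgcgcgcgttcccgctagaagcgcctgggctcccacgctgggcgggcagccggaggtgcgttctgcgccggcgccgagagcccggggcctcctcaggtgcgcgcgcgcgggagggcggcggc

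Both myosin genes held the SMAD core, Myh9 in 2 places and Myh10 in 1, and Myh10 also held the TEAD motif. Actn1, which rose, held none of the 4 motifs in its RefSeq window, and Actn4, which fell, held 1 each of the SMAD core, the TEAD motif and the AP-1 motif. The SMAD core is short and occurred in 49.6% of all 32851 promoter windows of the same length. It occurred in 7 of the 12 windows of the 10 genes, which belong to 5 genes (Actn4, Cald1, Myh10, Myh9, Tpm3). CATTCC occurred in 14.7% of all windows and in 4 of the 12 (Actn4, Cald1, Myh10, Tpm1). TGANTCA, a palindrome apart from its middle base, occurred in 7.81% of all windows and in 2 of the 12 (Actn4, Cald1). The CArG box is the element best known from SRF-driven actin and smooth muscle genes. It occurred in 1.63% of all windows and in 1 of the 12, that of Cnn2, which did not pass the expression test. Its 30-base surrounding at chr10:79988534-79988563 is given with the box in capitals.
Cnn2: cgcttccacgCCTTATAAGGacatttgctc
A match describes letters in a window and is not a binding site or a cause. Myh10 and Actn4, the 2 genes that fell, both held CAGAC and CATTCC, as did Cald1, which rose. Of the other genes that rose, Myh9 and Tpm3 held CAGAC without CATTCC, and Tpm1 held CATTCC without CAGAC. The share of all windows that hold both motifs was not computed.

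**Figure D2:**
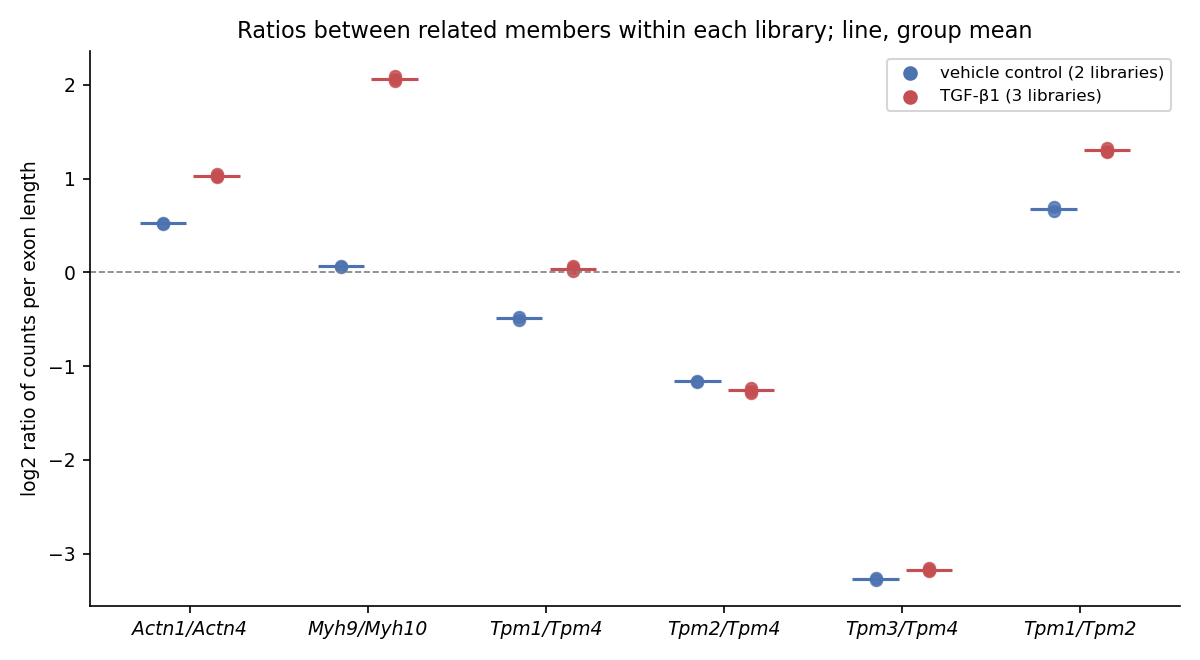
Log2 ratio of counts per merged exon length between pairs of related members, 1 point per library (blue, 2 vehicle controls; red, 3 TGF-β1), with group means as lines. Myh9/Myh10 moves from 0.07 to 2.07, and Actn1/Actn4, Tpm1/Tpm4 and Tpm1/Tpm2 rise by 0.51 to 0.63.

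Among the tropomyosins, Tpm1 rose 1.5-fold and the other members moved by 1.11-fold or less. Tpm1 gives rise to long isoforms typical of stress fibres and smooth muscle as well as short ones (ENSMUSG00000032366 on chromosome 9, 67022590 to 67049406, minus strand). Its level was 2836 and 2899.5 CPM in the controls and 4335, 4298 and 4245.5 CPM with TGF-β1. It was the most abundant of the 10 genes by CPM, 18th of all genes in the table by mean level, and its treated libraries lay well above both controls. The means were 2868 ± 44.7 and 4293 ± 45.0 CPM, with a log2 fold change of 0.58 (SE 0.018, adjusted p = 1.43e-08 by edgeR).

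Tpm3, whose products are mostly short cytoskeletal tropomyosins, was the scarcest of the 10 in the controls (ENSMUSG00000027940 on chromosome 3, 90072649 to 90100902, plus strand). It read 395 and 387 CPM in the controls and 426, 441 and 438 CPM with TGF-β1. The groups did not overlap, but the gap was small: 391 ± 6.03 against 435 ± 7.74 CPM, an increase of 11.2% (95% interval 6.45 to 16.2%, log2 fold change 0.15, adjusted p = 0.00173). With library totals in place of TMM its log2 fold change was 0.05 and the call was lost (adjusted p = 0.147). Its count is uncertain, since 19.1% of its 75-base transcript stretches recur in the intronless copy Tpm3-rs7 (27.2 ± 0.066 CPM in controls, 30.2 ± 0.683 CPM with TGF-β1). Adding the counts of that copy left the log2 fold change at 0.15.

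Tpm4, a source of short cytoskeletal isoforms and 1 that is enriched in stress fibres, was nearly level between groups (ENSMUSG00000031799 on chromosome 8, 72134975 to 72153142, plus strand). It read 1366 and 1365 CPM in the controls and 1406, 1419 and 1426 CPM with TGF-β1. The means of 1366 ± 0.889 and 1417 ± 10.1 CPM differ by 3.76%, with an adjusted p of 0.0498 by edgeR that only just passed. That call ended when any 1 of the 5 libraries was left out (adjusted p = 0.0705 to 0.12), and with library totals the log2 fold change turned to −0.046. A processed pseudogene, Gm7809, shares 9.11% of its 75-base stretches and lay at 11.1 ± 0.494 and 13.6 ± 0.896 CPM.

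Tpm2, best known as the β-tropomyosin of muscle and of fibroblast stress fibres, did not pass (ENSMUSG00000028464 on chromosome 4, 43514711 to 43523765, minus strand). It read 806 and 805 CPM in the controls and 791, 769 and 785 CPM with TGF-β1. All 3 treated libraries lay below both controls by a small margin, with a change of −2.93% (95% interval −6.38 to 0.642%, adjusted p = 0.165). With library totals it was called lower (log2 fold change −0.14, adjusted p = 0.000729). So Tpm1 and Tpm2, both sources of long isoforms, differed in response: the log2 ratio Tpm1/Tpm2 rose by 0.63, from 0.68 ± 0.024 to 1.3 ± 0.024 (exact permutation p = 0.1).

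Tropomyosins made from a single gene differ by promoter and by spliced exons, and a count per gene cannot say which isoform changed. GENCODE M21 lists 21 transcripts for Tpm1, 16 for Tpm3, 6 for Tpm2 and 2 for Tpm4. Per kilobase of merged exons, Tpm1 supplied 31.5 ± 0.38% of the summed tropomyosin level in the controls and 40.2 ± 0.37% with TGF-β1. Tpm4 went from 44.2 ± 0.19% to 39.1 ± 0.34%, Tpm2 from 19.7 ± 0.097% to 16.3 ± 0.22%, and Tpm3 from 4.58 ± 0.087% to 4.34 ± 0.085%. The summed level went from 1403 ± 5.16 to 1645 ± 2.92 CPM per kilobase. Which tropomyosin led depended on the length used: with the longest coding transcript, Tpm1 led in both groups, at 45.5 ± 0.46% and 54.9 ± 0.38%. Its share was higher with TGF-β1 under both lengths.

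**Figure D3:**
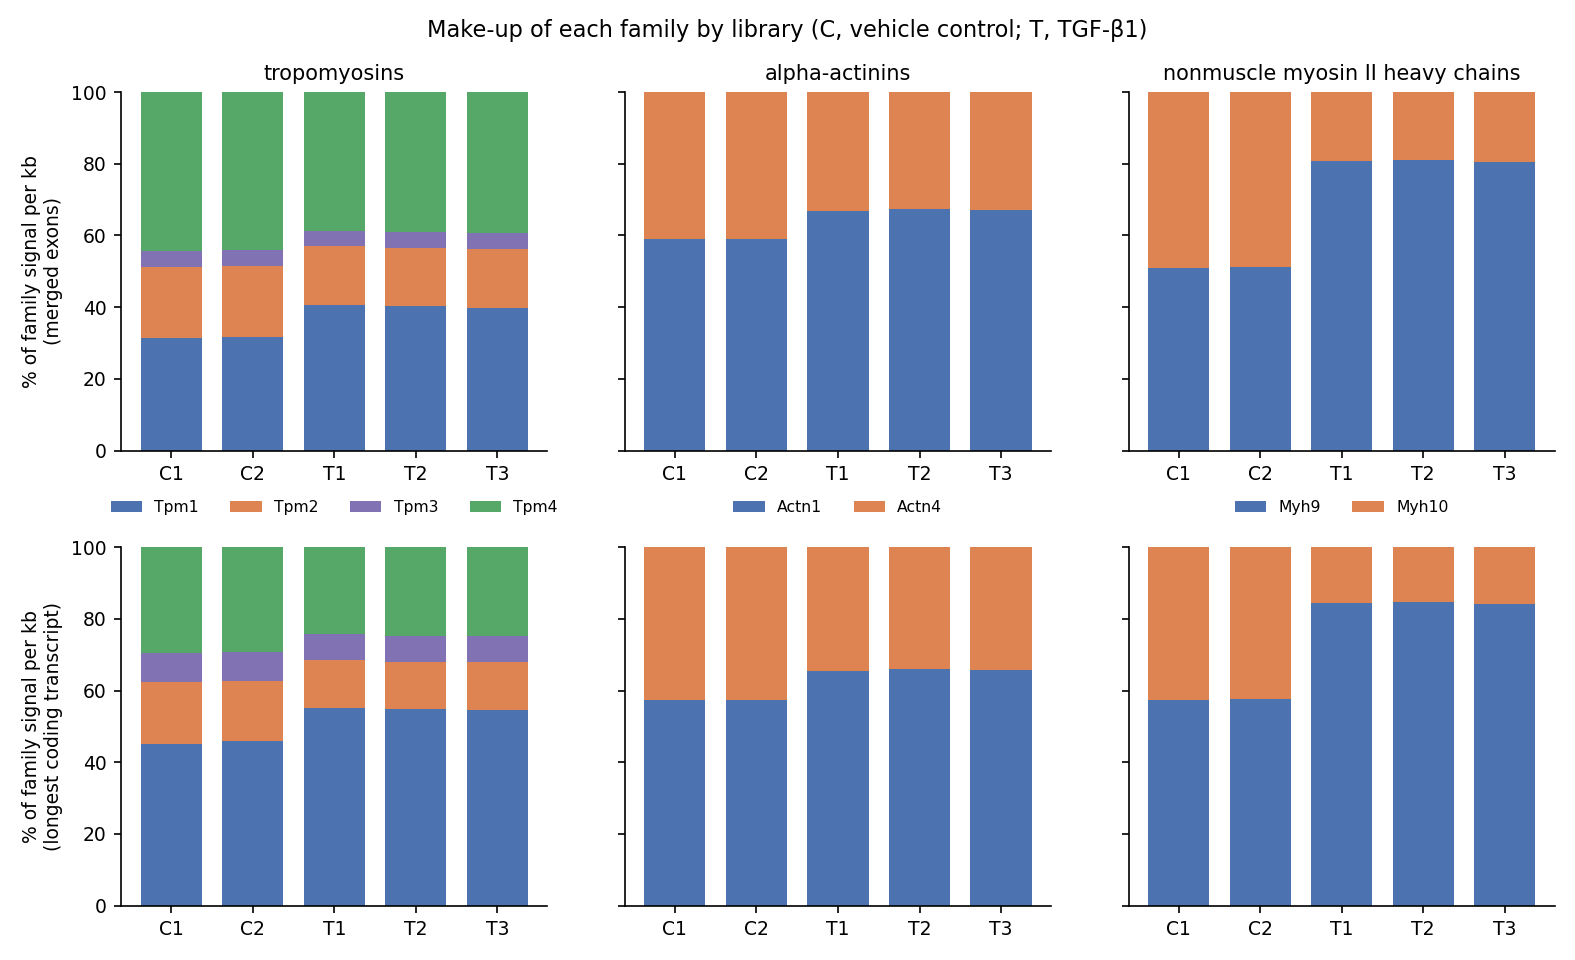
Share of each member in the summed per-kilobase level of its family (percent), 1 bar per library (C1 and C2, vehicle control; T1 to T3, TGF-β1), with length taken as merged exons (upper row) or the longest coding transcript (lower row). In the upper row Myh9 goes from 51.1% to 80.7%, Actn1 from 58.9% to 67.2% and Tpm1 from 31.5% to 40.2%.

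The α-actinins also parted, on a smaller scale. Actn1 encodes α-actinin 1, a main crosslinker of stress fibres and focal adhesions (ENSMUSG00000015143 on chromosome 12, 80167547 to 80260371, minus strand). It read 1507 and 1459 CPM in the controls and 1911, 1956 and 1966 CPM with TGF-β1. The groups were well separated, at 1483 ± 33.8 and 1944 ± 29.3 CPM, a 1.31-fold increase (log2 fold change 0.39, SE 0.023, adjusted p = 9.69e-07 by edgeR).

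Actn4 encodes α-actinin 4, found in stress fibres and at moving cell edges (ENSMUSG00000054808 on chromosome 7, 28893248 to 28962340, minus strand). It read 1158 and 1129 CPM in the controls and 1048, 1043 and 1068 CPM with TGF-β1. Each treated library lay below both controls. The means of 1144 ± 20.9 and 1053 ± 13.3 CPM correspond to a change of −7.92% (95% interval −11.1 to −4.59%, log2 fold change −0.12, adjusted p = 0.00221). Without any 1 library the adjusted p stayed at or under 0.0236.

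Per kilobase, Actn1 was 1.44 and 1.43 times Actn4 in the controls and 2.02, 2.08 and 2.04 times Actn4 with TGF-β1. The mean log2 ratio rose by 0.51, from 0.52 ± 0.0065 to 1.03 ± 0.021, or 29.6 times the pooled SD (exact permutation p = 0.1, the smallest possible). Neither gene shared a 75-base stretch with another annotated gene. Genes overlapping Actn1, Actn4 or Tpm4 exons on the opposite strand had at most 36.8 counts a library on average. The muscle α-actinins were scarce: Actn2 had at most 0.0497 CPM in any library, and Actn3 fell from 14.5 ± 1.27 to 3.42 ± 0.510 CPM (−2.08 in log2 fold change).

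Of the thin filament regulators, Cald1 rose and Cnn2 did not pass. Cald1 encodes caldesmon, which binds actin, tropomyosin and myosin and restrains their sliding (ENSMUSG00000029761 on chromosome 6, 34598500 to 34775473, plus strand). It read 2113 and 2110.3 CPM in the controls and 2559.7, 2562 and 2631 CPM with TGF-β1. The controls were nearly identical and all 3 treated libraries were higher, giving 2111 ± 1.59 and 2584.5 ± 40.7 CPM (0.29 in log2 fold change, SE 0.020, adjusted p = 2.5e-06 by edgeR). The count pools 18 listed transcripts, among them the light form of nonmuscle cells and the heavy form of smooth muscle.

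Cnn2 encodes calponin 2, the form found in nonmuscle as well as smooth muscle cells (ENSMUSG00000004665 on chromosome 10, 79988584 to 79996062, plus strand). It read 676 and 649 CPM in the controls and 684, 683 and 661 CPM with TGF-β1, and it was the only one of the 10 whose groups overlapped. The change was 2.06% (95% interval −2.34 to 6.65%, adjusted p = 0.438), and with library totals its log2 fold change was −0.070 (adjusted p = 0.0621). Its smooth muscle relative Cnn1, named after its value was seen, went from 826 ± 24.8 to 789 ± 5.17 CPM (adjusted p = 0.0626), whereas Cnn3 rose from 444 ± 17.3 to 537 ± 7.69 CPM (0.27 in log2 fold change).

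**Figure D4:**
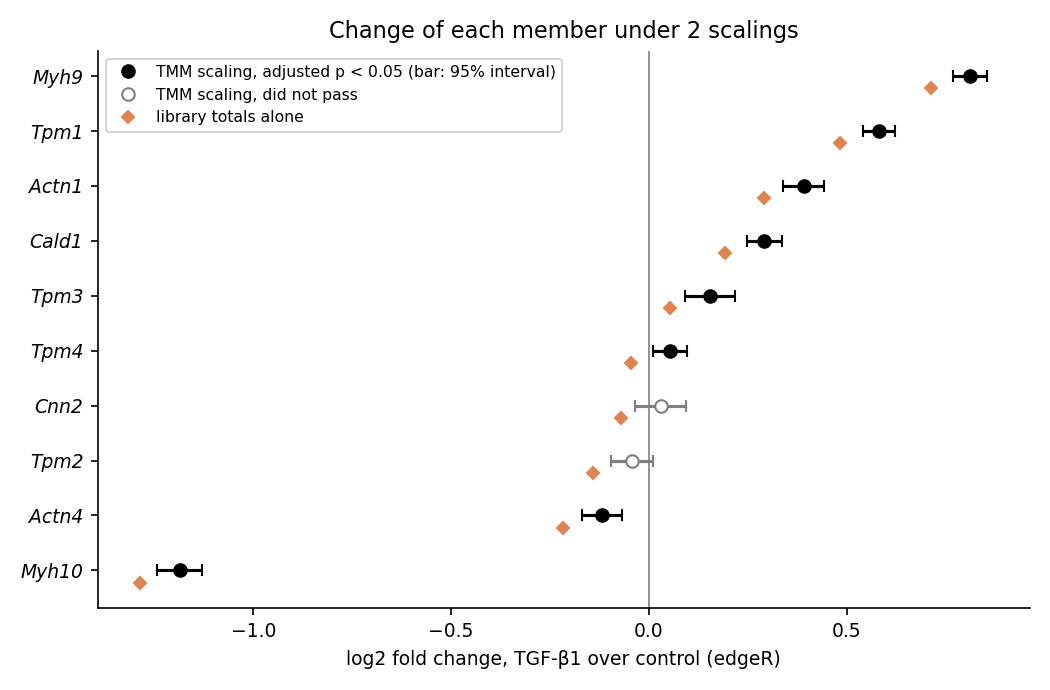
Log2 fold change of each of the 10 genes (x axis, TGF-β1 over control). Circles with 95% intervals use TMM scaling (filled, adjusted p under 0.05) and diamonds use library totals alone, which lie about 0.10 lower. Myh9 and Myh10 stand at 0.81 and −1.19, and Tpm4 and Cnn2 change sign between the scalings.

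Levels of different genes can be ordered only per length, and the order depended on which length was taken. Per kilobase of merged exons in the controls, Tpm4 led at 620 ± 0.403 CPM per kilobase, ahead of Tpm1 at 442 ± 6.90. Tpm2 (277 ± 0.341), Cnn2 (269 ± 7.80) and Actn1 (268 ± 6.10) followed. Cnn2 and Actn1 did not differ beyond their spread, and Tpm2 lay above both in each control library. Actn4 (187 ± 3.41), Cald1 (175 ± 0.132), Myh9 (145 ± 2.55), Myh10 (139 ± 3.41) and Tpm3 (64.3 ± 0.991) came last. With TGF-β1 the order began with Tpm1 (662 ± 6.94), Tpm4 (643 ± 4.58) and Actn1 (351 ± 5.30). Cnn2 (275 ± 5.25) and Tpm2 (269 ± 3.90) lay within about 1 SD of each other, followed by Myh9 (255 ± 1.71), Cald1 (215 ± 3.38) and Actn4 (172 ± 2.16). Tpm3 (71.5 ± 1.27) and Myh10 (60.9 ± 1.08) were lowest. With the longest coding transcript as length, Tpm1 led in both groups, at 992 ± 15.5 and 1485 ± 15.6 CPM per kilobase, and Tpm3 in the controls (175 ± 2.70) and Myh10 with TGF-β1 (81.7 ± 1.44) were lowest.

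The wider stress fibre machinery was read from 9 lists with 120 entries, of which 115 were tested. Of these, 40 rose, 39 fell and 36 did not pass, with a median log2 fold change of −0.01, against 21.3% higher and 23.2% lower over all genes tested. With library totals the split was 29 higher and 54 lower, against 14.2% and 30% of all genes. Abundant genes were called more often: with TMM scaling, 51.4% of genes at 100 CPM or more rose and 22% fell. The lists hold genes above and below that level, and no share matched to their levels was computed. Myl12b was left out, because 2 overlapping gene IDs carry that symbol.

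Genes that act directly on myosin II split. Of 15 light chain and other myosin genes tested 5 rose and 6 fell, and of 18 kinase, phosphatase and other regulator genes 5 rose and 6 fell. Mylk, encoding the kinase that switches on myosin light chains, fell from 426 ± 5.30 to 177 ± 4.3 CPM (−1.27 in log2 fold change, adjusted p = 3.35e-09). Cdc42bpa, a kinase related to ROCK that can also act on myosin light chain phosphorylation, rose from 264 ± 3.05 to 428 ± 15.3 CPM (0.70 in log2 fold change), and the GTPase gene Rhoc rose from 213 ± 2.06 to 295 ± 6.59 CPM (0.47 in log2 fold change). Myo18a, a class XVIII myosin that joins myosin II filaments, fell from 97.3 ± 4.24 to 43.2 ± 0.734 CPM (−1.17 in log2 fold change). Myo10, the filopodial myosin, fell from 180 ± 6.05 to 84.8 ± 4.82 CPM (−1.09 in log2 fold change), and Myo1e, a membrane-linked class I myosin, rose from 60.5 ± 1.16 to 78.6 ± 4.72 CPM (0.38 in log2 fold change).

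Light chains and ROCK kinases were named after their values were seen, because they bind or regulate the myosin heavy chains described above. Myl9, a regulatory light chain, went from 795 ± 19.9 to 706 ± 3.47 CPM (−0.17 in log2 fold change, adjusted p = 0.000357), and Myl12a, another, went from 552 ± 1.66 to 652 ± 18.1 CPM (0.24 in log2 fold change, adjusted p = 0.000126). Myl12a shares 462 exon bases with Myl12b, so its count is uncertain. The light chain genes Myl6 and Myl6b did not pass, with log2 fold changes of 0.07 and −0.67 (adjusted p = 0.071 and 0.0774 by edgeR). Rock2 fell by 0.16 on the log2 scale (adjusted p = 0.00364) and Rock1 did not pass, with a log2 fold change of 0.05 (adjusted p = 0.323).

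At filament ends and along filaments the lists were mixed as well. Of 11 tropomodulin and capping genes tested 3 rose and 4 fell. Eps8, a barbed-end capper, fell from 43.3 ± 1.90 to 4.57 ± 0.284 CPM (−3.24 in log2 fold change), Add3, an adducin, fell from 51.0 ± 2.42 to 22.3 ± 1.85 CPM (−1.19 in log2 fold change), and Capg rose from 98.9 ± 3.52 to 134 ± 1.66 CPM (0.43 in log2 fold change). Of 16 formin and elongation genes 4 rose and 7 fell. Enah, an actin polymerase of stress fibre ends and protrusions, rose from 103 ± 2.62 to 216 ± 0.868 CPM (1.07 in log2 fold change), while the formins Daam2 and Diaph3 fell, with log2 fold changes of −2.12 and −1.0. Of 11 severing and disassembly genes 4 rose and 3 fell, with smaller changes: Cap2 at −0.79, Ssh3 at −0.64 and Ssh1 at 0.33 on the log2 scale.

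Crosslinkers and other filament-binding proteins, α-actinins aside, were the list with the highest median log2 fold change, 0.14. Of its 20 genes 10 rose and 5 fell. That lies near the genes at 100 CPM or more, with a median of 0.11, 51.4% higher and 22% lower. Ezr, encoding ezrin, a membrane linker abundant in epithelia and mesothelium, fell from 860 ± 14.4 to 83.7 ± 3.74 CPM (−3.36 in log2 fold change), in the libraries where the mesothelial markers fell; their part in it was not tested. Lcp1, encoding L-plastin, an actin bundler of leukocytes, fell from 173 ± 5.87 to 88.2 ± 3.03 CPM (−0.97 in log2 fold change). In the same libraries 3 of 5 leukocyte markers tested were lower and 1, Ptprc, was higher (0.29 in log2 fold change). Their part in the fall of Lcp1 was not tested. Among 16 focal adhesion linkers 7 rose and 5 fell. Tln2, encoding talin 2, which couples integrins to actin, rose from 32.7 ± 1.10 to 106 ± 1.65 CPM (1.7 in log2 fold change), whereas Lims2 and Tns2 fell, with log2 fold changes of −0.93 and −0.65. Of the 4 tested genes of SRF and its coactivators, Mrtfa rose by 0.27 and Mrtfb fell by 0.39 on the log2 scale, and Srf itself, named after its value was seen, did not pass (95.4 ± 3.98 to 107 ± 9.03 CPM, adjusted p = 0.0774). Mrtfa shares 10 exon bases with Sgsm3 on the opposite strand, which had 648 counts a library on average against 5812 for Mrtfa.

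**Figure D5:**
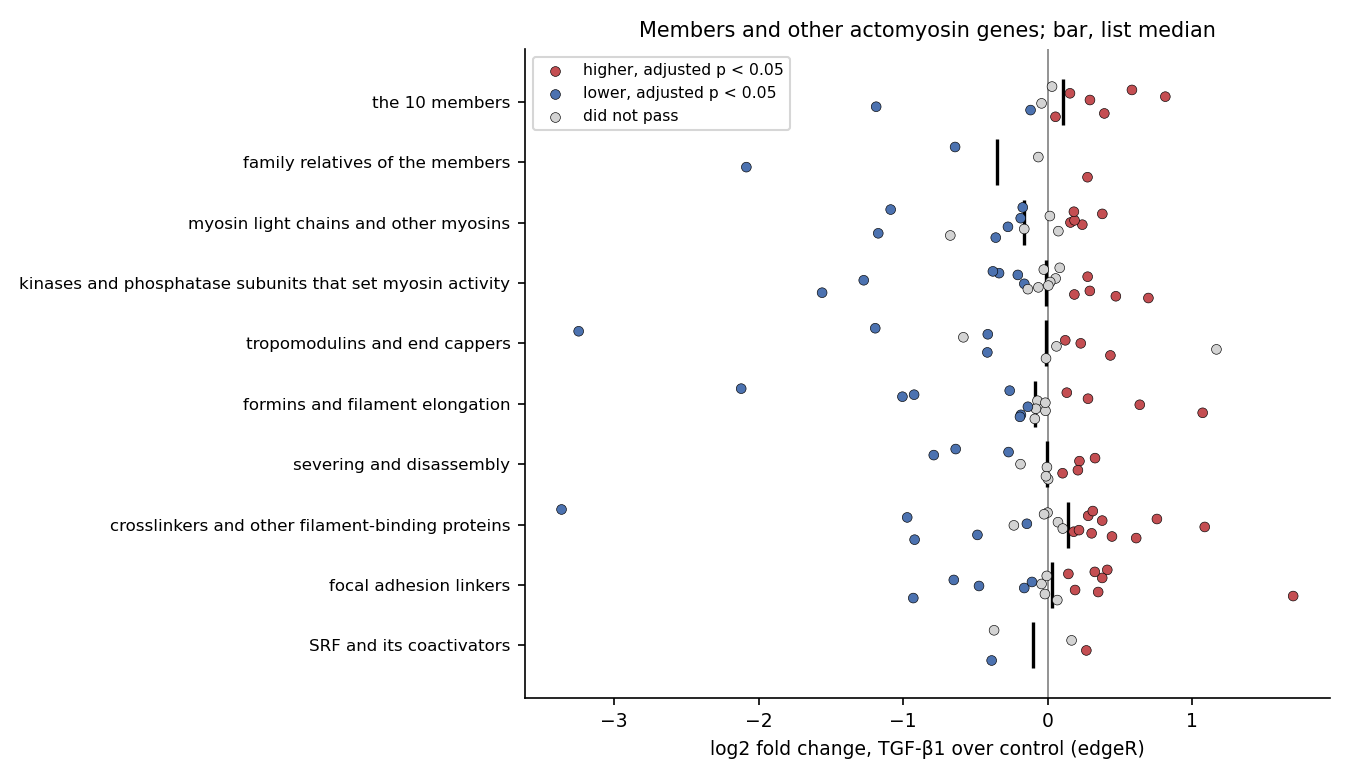
Log2 fold change (x axis, TGF-β1 over control) of the 10 genes and of each tested gene in 9 lists of other actomyosin genes, 1 point per gene (red, higher and blue, lower at an adjusted p under 0.05; grey, did not pass), with list medians as black bars. Of the 115 genes outside the 10, 40 rose and 39 fell, and Ezr and Eps8 lie farthest left at −3.36 and −3.24.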

How the data were processed

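Messenger RNA from cultured primary mouse lung fibroblasts was sequenced in 5 libraries. The authors deposited 1 table of unscaled whole-number counts per Ensembl gene ID. Per the submitters' processing notes, STAR 2.5.3a, StringTie 1.3.1c and mm10 were used, with no step named for each. The counting tool, its strand setting and its handling of multi-mapping reads are stated by no source used here. Columns and groups were assigned by sample titles.

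IDs were matched to GENCODE M21 (GRCm38), with symbols for 55154 of 55335. Genes were filtered with filterByExpr, scaled with TMM and compared by the quasi-likelihood F test of edgeR, with group as the sole term (two-sided, Benjamini-Hochberg over 16380 genes, threshold 0.05). SE is the absolute log2 fold change over the square root of F. Per-length levels divide by merged exon length. On simulated counts for this comparison (16380 genes), edgeR recovered 14 of 50 genes changed 1.25-fold, 36 of 50 at 1.5-fold, 43 of 50 at 2-fold and 50 of 50 at 4-fold, and called 16 unchanged genes. Python 3.11.15 ran matplotlib 3.10.9, numpy 2.4.6 and pandas 2.3.3. R 4.3.3 ran DESeq2 1.42.0, limma 3.58.1 and edgeR 4.0.16.

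The members, lists and motifs were chosen with earlier results of these data known. All 10 members were named, and from each of the 9 lists up to 3 genes by size of change among those called with a mean of at least 5 CPM. A gene that this rule names among the crosslinkers is not reported here. Totals of 34283288 to 43163967 counts per library set the counting precision. Alternatives were other scalings, filters and tools, a 1.5-fold null, dropping each library in turn and a block for the replicate number.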

Additional observations from a re-analysis of the deposited data

How the results depend on the processing

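The calls of Myh9, Myh10, Tpm1, Actn1, Cald1 and Actn4 kept direction and side of the threshold in all 13 alternatives other than the test against 1.5-fold, with the highest adjusted p at 0.0236 (Actn4). Against 1.5-fold, 1 member was higher and 1 lower, as were 5 and 14 of the pathway genes and 563 and 1223 of all genes. With library totals, 2325 genes were higher and 4921 lower, in place of 3488 and 3799 (the median of all genes shifted by −0.10), and the members split 4 higher and 3 lower. Tpm4 (−0.046, adjusted p = 0.0803) and Cnn2 (−0.070, adjusted p = 0.0621) then turned downward. Tpm4 was called in 5 of 15 alternatives.

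Leaving out 1 library gave 5 members higher and 2 lower each time, 34 to 43 and 33 to 40 pathway genes, and 2620.0 to 3623 and 2813 to 3881 of all genes. It moved the change in log2 ratio by no more than the spread within groups: Myh9/Myh10 1.99 to 2.01, Actn1/Actn4 0.50 to 0.52, Tpm1/Tpm4 0.51 to 0.55, Tpm1/Tpm2 0.61 to 0.64, Tpm2/Tpm4 −0.11 to −0.08 and Tpm3/Tpm4 0.09 to 0.12. The titles share the numbers 1 and 2 between groups without saying that they pair cultures. Deviations of same-numbered libraries from their group means correlated at 0.0159 and 0.0161. With 2 controls, the deviations of control 1 and control 2 mirror each other, so these are not 2 separate checks. With the replicate block, 3538 genes were higher and 3727 lower, and 5 members higher and 2 lower (Tpm4 lost, adjusted p = 0.114). Summing near-identical copies into Tpm3 and Tpm4, added after the data were seen, changed no call. The test of ratios cannot pass 0.05 with 5 libraries.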
